A study of Mus musculus with 6 samples.

Results

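The comparison described here asks what the super-repressor virus AdIkBa-SR did in mouse dendritic cells that also received TNFa. It sets the array of cells with AdIkBa-SR and TNFa (AdIkBa-SR+TNFa) against the array of cells with TNFa and no virus (TNFa), 2 of the 6 Affymetrix MOE430A arrays of the study, and covers all 22626 non-control probe sets of the array, of 22690 in all. The cells were grown in culture from bone marrow of a female CAR-transgenic mouse aged 13 weeks, with 7 days of expansion and 7 days of differentiation in 250 U/ml GM-CSF. Transduced cells received 1500 virus particles per cell for 2 h and 18 h of further culture, and TNFa, where given, followed at 50 ng/ml for 4 h more. The other arrays measured untreated cells, cells with the control virus AdOVA, cells with AdOVA and TNFa (AdOVA+TNFa), and cells with AdIkBa-SR without TNFa. Every group has 1 array of 8 ug RNA. The labels describe 1 mouse, do not say that the groups were separate cultures, and record no mock transduction of the cells without virus. AdIkBa-SR+TNFa and TNFa cells therefore differ in the virus particles and in the gene the virus carries.

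NF-kB is a family of transcription factors that is held in the cytoplasm by IkB proteins, chiefly IkBa. TNFa leads to phosphorylation and breakdown of IkBa, which frees NF-kB to enter the nucleus and switch on genes for cytokines, chemokines, survival factors and its own inhibitors. The super-repressor form of IkBa cannot be phosphorylated in this way and keeps NF-kB bound. In dendritic cells, the antigen-presenting cells that activate T cells, NF-kB takes part in the maturation step that raises costimulatory molecules. Adenovirus particles can themselves be sensed by such cells, which then make interferon and interferon-stimulated genes.

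The median signal was 76.5 on the TNFa array and 75.3 on the AdIkBa-SR+TNFa array, within the range of 74.4 to 88.5 over all 6 arrays. The share of non-control probe sets above the floor of 53.5, the 40th percentile of all their signals, was 58.7% on the first and 58.4% on the second. Values under the floor were raised to it before log2 was taken, so where 1 of the arrays is under it the difference is a lower limit. The array headers record 2 hybridization times: the untreated, TNFa and AdOVA arrays belong to the first, and the other 3 arrays to the second. The virus difference and the hybridization time therefore cannot be told apart in the direct comparison. A sum that stays within each hybridization time, log2 of AdIkBa-SR+TNFa over AdOVA+TNFa plus log2 of AdOVA over untreated, is called the within-time sum below. It assumes that AdOVA acts alike with and without TNFa. Both arrays of the comparison were washed and stained with the same protocol. The AdIkBa-SR array without TNFa was not: its headers record 0 wash cycles and 420 s of first staining, against 10 and 4 cycles and 600 s on the other arrays. Markers of dendritic cells were present on both arrays, with Itgax (CD11c) at 755 on the TNFa array and 847 on the AdIkBa-SR+TNFa array and the MHC class II chaperone Cd74 at 1993 and 3139. The dendritic cell receptor Flt3 was under the floor on both, at 46.8 and 14.2, and Xcr1, a marker of cross-presenting dendritic cells, went from 68.0 on TNFa to under the floor (12.8) on AdIkBa-SR+TNFa. Of the 10 dendritic cell markers on the array, 9 were above the floor on TNFa and 8 on AdIkBa-SR+TNFa. Every T cell marker of the list was under the floor on the AdIkBa-SR+TNFa array.

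The AdIkBa-SR+TNFa array carried higher signals for a group of chemokines and for the collagenase gene Mmp13. It carried lower signals for Ccl22, Fas, genes of cholesterol synthesis and 1 of 4 probe sets of the maturation gene Fscn1. Of 14906 measured probe sets (above the floor on at least 2 of the 6 arrays), 462 (3.1%) were at least 2-fold higher on the AdIkBa-SR+TNFa array than on the TNFa array, and 391 (2.62%) were at least 2-fold lower. Without the filter these were 465 (2.06%) and 394 (1.74%) of 22626. Where both arrays were above the floor, 395 were higher and 335 lower of 12272. By gene, each read from its brightest probe set with 1 gene symbol, 280 of 8927 measured genes (3.14%) were higher and 210 (2.35%) lower. Over the measured probe sets the log2 difference had a median of 0, with quartiles of -0.35 and 0.29. There is no replicate, so these counts carry no test, and the p-value of a difference between these cultures cannot be had from 1 array each. In these bulk samples, fewer cells of a type and less RNA per cell cannot be told apart.

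**Figure D1:**
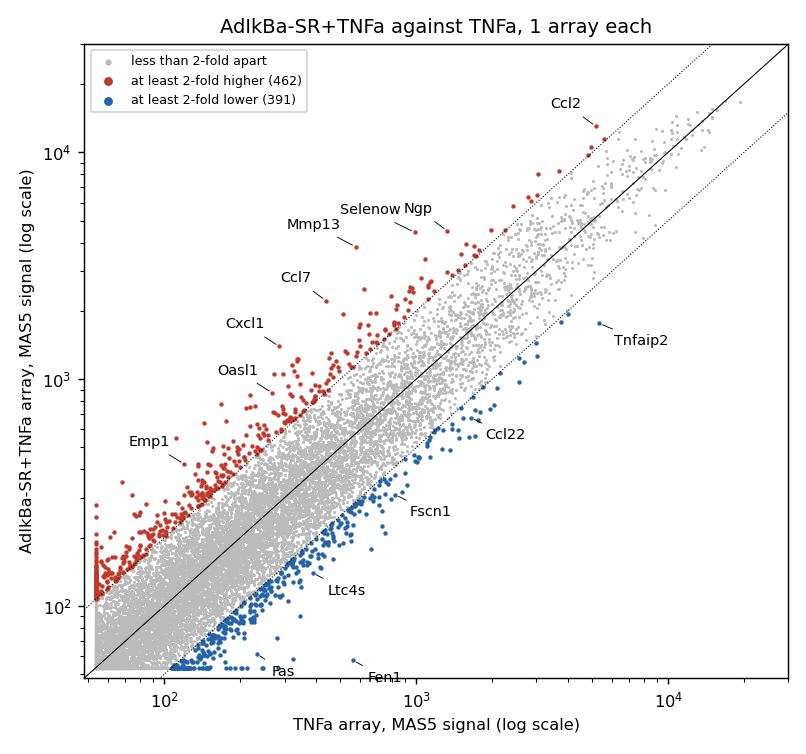
Signals of 14906 measured probe sets on the TNFa array (x axis) and the AdIkBa-SR+TNFa array (y axis), both MAS5 signal on log scales, with values under the floor drawn at it. The solid line marks equal signals and the dotted lines 2-fold; 462 probe sets lie above and 391 below the dotted lines, and Mmp13, Ccl7, Cxcl1 and Fen1 are among those farthest out.

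These probe sets were chosen on the TNFa and AdIkBa-SR+TNFa arrays, so their ranks among the 6 arrays are a description. Of the 462 higher probe sets, the AdIkBa-SR+TNFa array was the highest of the 6 arrays in 303 (65.6%), and the TNFa array was the lowest in 235 (50.9%). Of the 391 lower probe sets, AdIkBa-SR+TNFa was the lowest array in 263 (67.3%) and TNFa the highest in 301 (77.0%).

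The pair AdIkBa-SR over untreated has the same virus difference without TNFa and shares no array with the comparison. It too runs from an array of the first hybridization time to one of the second, so what is common to both pairs cannot be told apart from that time, and it uses the array with its own wash protocol. There, 87 probe sets (0.584%) passed 2-fold upward and 81 (0.543%) downward. Among these, 20 probe sets were higher in both pairs (0.134% of those measured), which is 4.33% of the 462 and 23.0% of the 87. Lower in both pairs were 6 (0.0403%), which is 1.53% of the 391 and 7.41% of the 81. In 11 probe sets the pairs differed at least 2-fold in opposite directions. The 462 higher probe sets had a median log2 of 0.01 in the pair without TNFa, with quartiles of -0.22 and 0.30. For 234 of them (50.6%) that difference was above 0. The control virus gave another yardstick that shares no array: of the 462, 46 (9.96%) were also at least 2-fold higher on AdOVA than on the untreated array, 6.99% of the 658 probe sets higher there (4.41% of those measured), and 43 were at least 2-fold lower there. Of the 391, 41 (10.5%) were also lower with AdOVA, 6.17% of the 665 lower there (4.46%), and 15 were higher.

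**Figure D2:**
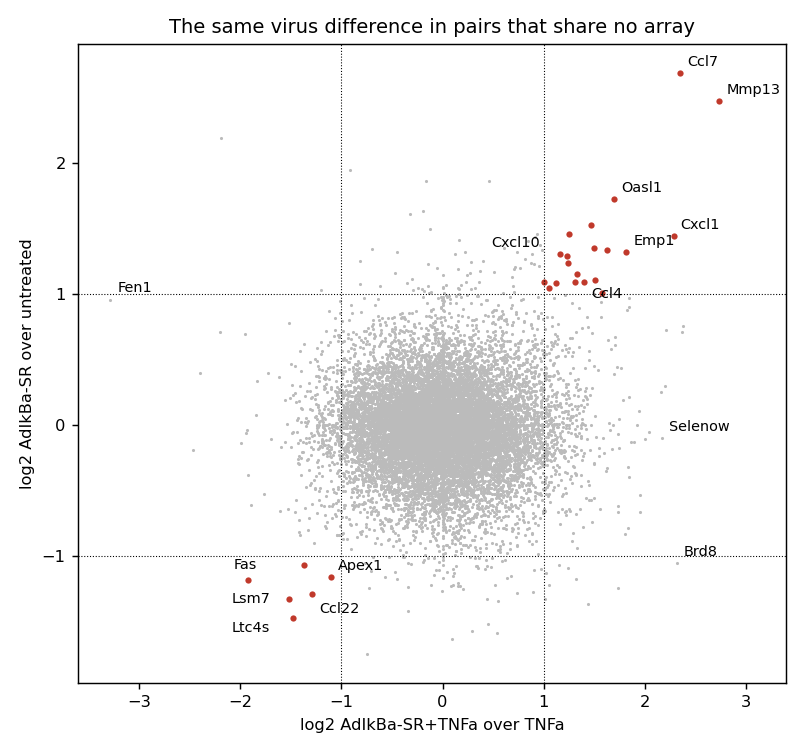
Log2 difference AdIkBa-SR+TNFa over TNFa (x axis) against AdIkBa-SR over untreated (y axis) for 14906 measured probe sets, 1 point each, with dotted lines at 2-fold. The red points are the 20 probe sets higher and the 6 lower in both pairs; Ccl7 and Mmp13 lie at the upper right, whereas Selenow, Brd8 and Fen1 differ in the pair with TNFa and not in the same direction by 2-fold without it.

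By gene, 15 of 8927 (0.168%) were at least 2-fold higher in both pairs, and 6 of them were chemokines. Chemokines are secreted proteins that draw leukocytes. On the chemokine list, 6 of 19 measured members were at least 2-fold higher on the AdIkBa-SR+TNFa array, against 3.14% of all measured genes, and 1 was lower. Without TNFa, 7 members were higher and 1 lower, against 0.627% and 0.594% of all measured genes. The list's median log2 was 0.73 with TNFa and 0.76 without, where the median of all measured genes was 0 and -0.01. The list's median within-time sum was 1.30. Expressed against AdOVA+TNFa in place of TNFa, the list's median was -0.04, with 6 members higher and 3 lower. Over all measured genes, 4.91% were higher and 4.46% lower than on AdOVA+TNFa.

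Ccl7, which attracts monocytes through the receptor CCR2, had signals of 405 on the untreated array, 437 on TNFa, 1550 on AdOVA, 694 on AdOVA+TNFa, 2608 on AdIkBa-SR and 2221 on AdIkBa-SR+TNFa. The AdIkBa-SR arrays were the highest of the 6, and Ccl7 was 5.08-fold higher on AdIkBa-SR+TNFa than on TNFa and 3.20-fold higher than on AdOVA+TNFa. Ccl2, a ligand of the same receptor, read 5977 on the untreated array, 5162 on TNFa, 9689 on AdOVA, 5536 on AdOVA+TNFa, 13259 on AdIkBa-SR and 13014 on AdIkBa-SR+TNFa. It was 2.52-fold higher with AdIkBa-SR under TNFa, and again the arrays with AdIkBa-SR were the highest. Ccl12, a related monocyte attractant, was under the floor without virus (6.79 untreated and 4.50 with TNFa) and read 74.8 on AdOVA, 29.0 on AdOVA+TNFa, 136 on AdIkBa-SR and 151 on AdIkBa-SR+TNFa. It was at least 2.83-fold higher in the comparison. These 3 monocyte attractants shared an order in which both AdIkBa-SR arrays lay above the AdOVA arrays.

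Cxcl1, Ccl4 and Cxcl10 had another order, with the AdOVA arrays at the top. Cxcl1, which attracts neutrophils, read 276 on the untreated array, 286 on TNFa, 3011 on AdOVA, 2638 on AdOVA+TNFa, 749 on AdIkBa-SR and 1393 on AdIkBa-SR+TNFa. It was 4.87-fold higher than with TNFa alone, yet 1.89-fold lower than on AdOVA+TNFa. Ccl4, a chemokine made by activated myeloid cells, read 525 on the untreated array, 594 on TNFa, 3126 on AdOVA, 1935 on AdOVA+TNFa, 1127 on AdIkBa-SR and 1694 on AdIkBa-SR+TNFa, a 2.85-fold difference in the comparison. Cxcl10, an interferon-induced ligand of CXCR3, read 314, 330, 7909, 7073, 774 and 739 on the same arrays in the same order. It was 2.24-fold higher than with TNFa alone and 9.57-fold lower than on AdOVA+TNFa, so the AdIkBa-SR arrays lay between the arrays without virus and those with AdOVA. Among the other list members, Ccl3 (log2 0.70), Cxcl2 (0.88) and Ppbp (0.91) were higher by less than 2-fold, and Ccl5 (0.29), Ccl6 (-0.12) and Ccl9 (-0.04) differed little. Ppbp and Pf4 (0.60) are also markers of megakaryocytes, the platelet precursors. The summed signal of the 5 measured markers of that cell type was 6858 on TNFa and 10332 on AdIkBa-SR+TNFa, most of it Pf4, and the part of such cells in the chemokine list was not tested.

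Mmp13, the collagenase-3 gene, had the largest upward difference of all measured probe sets. Its signal was 777 on the untreated array, 575 on TNFa, 2688 on AdOVA, 2886 on AdOVA+TNFa, 4301 on AdIkBa-SR and 3828 on AdIkBa-SR+TNFa. All 4 arrays with virus were above both arrays without it. Mmp13 was 6.66-fold higher on AdIkBa-SR+TNFa than on TNFa and 1.33-fold higher than on AdOVA+TNFa.

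The 250 bases upstream of the gene start are shown for Cxcl1, Cxcl10 and Mmp13, the genes of this group whose promoter held a match to a searched motif and whose signals are given above. The sequences are RefSeq promoters on GRCm38.p6, read 5′ to 3′ on the gene's strand, and capitals mark the matches. They lie at chr5:90890995-90891244 on the plus strand for Cxcl1, at chr5:92348890-92349139 on the minus strand for Cxcl10 and at chr9:7272264-7272513 on the plus strand for Mmp13.
Cxcl1: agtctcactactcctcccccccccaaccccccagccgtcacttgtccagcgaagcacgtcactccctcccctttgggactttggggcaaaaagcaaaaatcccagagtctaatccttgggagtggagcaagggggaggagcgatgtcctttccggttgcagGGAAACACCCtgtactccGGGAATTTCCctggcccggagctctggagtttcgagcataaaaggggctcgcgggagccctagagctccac
Cxcl10: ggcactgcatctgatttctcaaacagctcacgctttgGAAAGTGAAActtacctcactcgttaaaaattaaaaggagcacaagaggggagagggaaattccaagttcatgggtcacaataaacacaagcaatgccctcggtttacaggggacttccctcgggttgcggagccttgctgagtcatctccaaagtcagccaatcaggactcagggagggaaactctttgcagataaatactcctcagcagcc
Mmp13: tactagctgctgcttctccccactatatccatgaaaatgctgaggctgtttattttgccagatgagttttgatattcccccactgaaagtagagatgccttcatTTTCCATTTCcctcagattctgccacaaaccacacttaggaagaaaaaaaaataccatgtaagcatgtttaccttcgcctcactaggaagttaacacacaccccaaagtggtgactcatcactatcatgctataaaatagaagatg
Cxcl1 held the NF-kB motif at both marked places, from base 89 to base 80 upstream of the start on the opposite strand and from base 71 to base 62 on the gene's strand. Cxcl10 held the core of the interferon response element from base 213 to base 204 on its own strand, and Mmp13 held it from base 146 to base 137 on the opposite strand. Both strands were searched. The NF-kB motif leaves its central bases free and fixes all others, so kB-like stretches with other letters there were not counted. A promoter without a match, such as that of Cxcl10, may still hold such a stretch. A narrower form of the motif, with the central bases fixed as in the classical kB site, was searched too. Of the 15 genes, 12 were matched to a promoter, all but Ccl2, Ccl4 and Ccl7. The NF-kB motif was found in 2 of the 12 (Cxcl1 and Hivep2), against 1.86% of 7253 measured genes with a promoter and 1.41% of all 32851 promoters of the table. The interferon element was found in 2 of the 12, against 3.39% and 2.98%, and the narrow NF-kB form in 0 of the 12, against 0.234% and 0.140%. None of the 3 forms was found in the promoters of the 6 genes lower in both pairs. A match describes these letters only and is no evidence of binding.

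**Figure D3:**
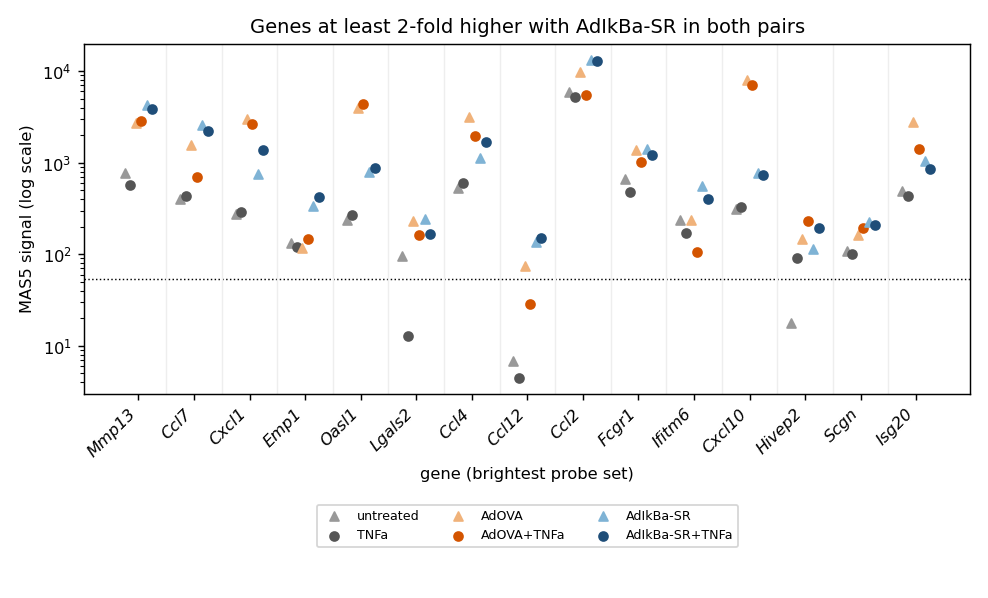
MAS5 signal (log scale) of the 15 genes at least 2-fold higher with AdIkBa-SR in both pairs, 1 point per array, triangles without TNFa and circles with it; the dotted line is the floor of 53.5. For Ccl7, Ccl2, Ccl12, Emp1 and Ifitm6 the AdIkBa-SR arrays (blue) are the highest, and for Oasl1 and Cxcl10 the AdOVA arrays (orange) are far above all others.

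Interferon-stimulated genes, which cells switch on in response to interferon, had a median log2 difference of 0.33. Of 32 measured members of the list, 4 were at least 2-fold higher on AdIkBa-SR+TNFa than on TNFa (Oasl1, Ifit1, Irf7 and Isg20) and 1 was lower (Ifih1), against 3.14% and 2.35% of all measured genes. The log2 difference was above 0 for 25 of the 32, against 46.3% of all measured genes. Without TNFa the list's median with AdIkBa-SR was 0.52, with 7 members at least 2-fold higher, against 0.627% of all measured genes. The median within-time sum was 0.14. On AdOVA+TNFa over TNFa, which shares the TNFa array, 24 of the 32 were at least 2-fold higher (6.28% of all measured genes were), with a median of 1.39. Against AdOVA+TNFa, 21 were at least 2-fold lower on AdIkBa-SR+TNFa and 0 higher, where 4.46% and 4.91% of all measured genes were.

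Oasl1, an interferon-induced gene of the oligoadenylate synthetase-like family, read 237 on the untreated array, 268 on TNFa, 3971 on AdOVA, 4396 on AdOVA+TNFa, 782 on AdIkBa-SR and 870 on AdIkBa-SR+TNFa. The AdIkBa-SR arrays lay above both arrays without virus and below both with AdOVA, 3.24-fold over TNFa and 5.06-fold under AdOVA+TNFa. Ifit1, which binds foreign RNA, read 903, 691, 8235, 5604, 1802 and 1957 on the same arrays in the same order. Isg20, an interferon-induced exonuclease, read 490, 429, 2775, 1402, 1042 and 860, a 2.01-fold difference that sits at the limit of the call. These members kept the order of no virus, AdIkBa-SR and AdOVA. Irf7, a transcription factor that amplifies interferon production, did not: it read 2784, 2420, 3184, 5589, 3084 and 5767, with AdOVA+TNFa and AdIkBa-SR+TNFa at the top. Ifih1, the RNA sensor MDA5, read 1124 on TNFa and 537 on AdIkBa-SR+TNFa, the opposite direction. Mx2, an antiviral GTPase, was under the floor on TNFa (15.3) and just above it on AdIkBa-SR+TNFa (53.9), while AdOVA+TNFa gave 565.

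The remaining genes higher in both pairs include Emp1 and Ifitm6, whose signals on both AdOVA arrays were within 2-fold of the matching arrays without virus. Emp1, a tetraspan membrane protein, read 134 on the untreated array, 120 on TNFa, 116 on AdOVA, 148 on AdOVA+TNFa, 334 on AdIkBa-SR and 422 on AdIkBa-SR+TNFa, and only the AdIkBa-SR arrays stood apart from the rest. It was 3.52-fold above TNFa and 2.84-fold above AdOVA+TNFa. Ifitm6, of the interferon-induced transmembrane family, read 234, 171, 234, 107, 551 and 405 on the same arrays, again with the AdIkBa-SR arrays at the top. It was 2.36-fold above TNFa and 3.79-fold above AdOVA+TNFa. Fcgr1, the high-affinity receptor for IgG, read 659, 482, 1367, 1011, 1399 and 1198, so that all arrays with virus lay above those without. Lgals2 (galectin-2) was under the floor on TNFa (12.8) and read 165 on AdIkBa-SR+TNFa, at least 3.08-fold higher, beside 161 on AdOVA+TNFa. Hivep2, a zinc finger protein that binds kB-like sites, read 90.2 on TNFa and 196 on AdIkBa-SR+TNFa, and Scgn, a calcium-binding protein, 102 and 211. The second probe sets of Hivep2 and Lgals2 did not share the difference, at log2 -0.80 and 0.15. Of the 15 genes, 5 were at least 2-fold above AdOVA+TNFa (Ccl7, Ccl2, Ccl12, Emp1 and Ifitm6), 2 at least 2-fold below it (Cxcl10 and Oasl1) and 8 in between. The within-time sum was at least 1 (2-fold) for 14 of the 15 and was 0.70 for Scgn. This count is a description, since the sum includes the AdIkBa-SR+TNFa array and the untreated array on which the genes were chosen.

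Lower in both pairs were 6 of 8927 genes (0.0672%): Ccl22, Fas, Ltc4s, Idi1, Lsm7 and Apex1. Ccl22, a chemokine of mature dendritic cells that binds CCR4, read 1542 on the untreated array, 1651 on TNFa, 615 on AdOVA, 1391 on AdOVA+TNFa, 631 on AdIkBa-SR and 676 on AdIkBa-SR+TNFa. It was 2.44-fold lower with AdIkBa-SR under TNFa and 2.06-fold lower than on AdOVA+TNFa, and the signals on AdIkBa-SR with and without TNFa were close to that of AdOVA alone. Fas, the death receptor, read 122, 233, 221, 193, 52.6 and 61.5 on the same arrays, with the AdIkBa-SR arrays lowest and the AdIkBa-SR array without TNFa under the floor. It was 3.80-fold lower than on TNFa and 3.14-fold lower than on AdOVA+TNFa.

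Ltc4s, leukotriene C4 synthase, read 445, 388, 253, 138, 160 and 140 on the same arrays, so that AdIkBa-SR+TNFa and AdOVA+TNFa were level. Lsm7, a component of the spliceosome, read 216, 206, 172, 146, 85.8 and 72.3. The DNA repair enzyme Apex1 read 334, 424, 366, 122, 149 and 197. It was 2.15-fold lower than on TNFa, but its within-time sum was 0.83, the opposite direction, and its other probe sets gave values up to -0.06. Against AdOVA+TNFa, 3 of the 6 were at least 2-fold lower (Ccl22, Fas and Lsm7) and none higher. The within-time sum was at most -1 for 2 of the 6, Ccl22 and Lsm7.

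**Figure D4:**
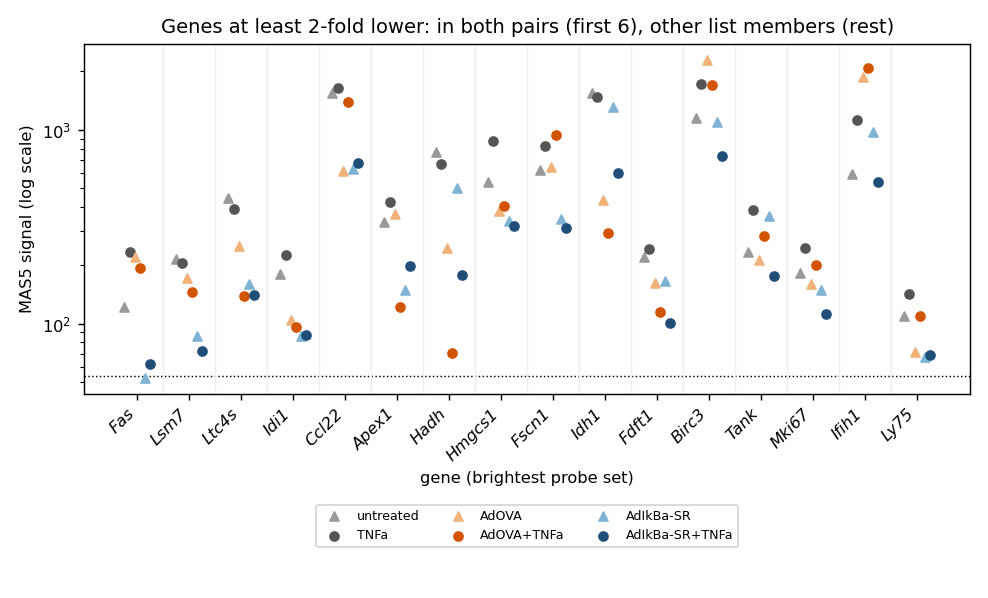
MAS5 signal (log scale) of the 6 genes at least 2-fold lower with AdIkBa-SR in both pairs (Fas to Apex1) and of the other members of the pathway lists at least 2-fold lower on AdIkBa-SR+TNFa than on TNFa (Hadh to Ly75), 1 point per array; the dotted line is the floor. For Fas, Lsm7 and Fscn1 both AdIkBa-SR arrays (blue) are the lowest, and for Birc3, Tank and Ifih1 the AdIkBa-SR+TNFa array alone is.

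Genes of the NF-kB pathway and its feedback inhibitors had a median log2 difference of 0.06 between AdIkBa-SR+TNFa and TNFa. Of 19 measured members, 1 was at least 2-fold higher (Nfkbib) and 2 lower (Birc3 and Tank), against 3.14% and 2.35% of all measured genes. Birc3, the inhibitor of apoptosis cIAP2 and a classical NF-kB target, read 1143 on the untreated array, 1717 on TNFa, 2293 on AdOVA, 1708 on AdOVA+TNFa, 1097 on AdIkBa-SR and 732 on AdIkBa-SR+TNFa, the lowest of the 6. Tank, an adaptor of TRAF proteins, read 385 on TNFa and 175 on AdIkBa-SR+TNFa, and Nfkbib, which encodes IkBb, 281 and 692. Tnfaip3, the feedback inhibitor A20, read 162, 189, 512, 1462, 110 and 224 on the same 6 arrays. The untreated and TNFa arrays were close to each other, and the log2 difference of AdIkBa-SR+TNFa over AdOVA+TNFa was -2.71. Relb (102 on TNFa, 158 on AdIkBa-SR+TNFa), Nfkb2 (313 and 336) and Traf1 (384 and 303) differed by less than 2-fold. Without TNFa, Relb read 90.7 on the untreated array and 18.2, under the floor, on AdIkBa-SR. Nfkb2 read 201 and 85.9 on these arrays, and Traf1 243 and 170. The log2 difference made by TNFa was smaller with AdIkBa-SR than without virus for 8 of the 19, beside 4196 of all 8927 measured genes. Against AdOVA+TNFa, 4 of the 19 were at least 2-fold lower and 0 higher, where 4.46% and 4.91% of all measured genes were.

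Nfkbia, the gene of IkBa, read 10697 on the TNFa array and 8571 on AdIkBa-SR+TNFa from its brightest probe set. Its 4 probe sets gave log2 values from -0.32 to 0.87. The labels do not say whether any probe set detects the mRNA of the super-repressor, so Nfkbia is no check of the transduction.

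Cytokine genes had a median log2 difference of 0.11 in the direct comparison. Of 17 measured members, 1 was at least 2-fold higher (Tgfb1, 932 on TNFa and 2458 on AdIkBa-SR+TNFa) and 0 lower, against 3.14% and 2.35% of all measured genes. The interleukin gene Il1a read 1275 on the untreated array, 3007 on TNFa, 5839 on AdOVA, 6622 on AdOVA+TNFa, 1907 on AdIkBa-SR and 1871 on AdIkBa-SR+TNFa. Tnf itself read 139, 318, 598, 583, 195 and 191 on the same arrays. For both, TNFa-treated cells without virus lay above untreated cells, and the AdIkBa-SR arrays with and without TNFa were nearly equal. The AdOVA arrays without and with TNFa were close too, at 5839 and 6622 for Il1a and 598 and 583 for Tnf. A small TNFa difference in these genes was therefore not particular to AdIkBa-SR. Il1b read 3788 on the untreated array, 6636 on TNFa, 3809 on AdIkBa-SR and 6202 on AdIkBa-SR+TNFa, so it was higher with TNFa in both. The log2 difference made by TNFa was smaller with AdIkBa-SR than without virus for 9 of the 17, beside 4196 of all 8927 measured genes. Il12b, the p40 subunit gene of interleukin-12, read 151 on TNFa and 77.9 on AdIkBa-SR+TNFa (log2 -0.95). Il6 read 326 and 452, beside 2749 on AdOVA+TNFa. Against AdOVA+TNFa, 7 of the 17 were at least 2-fold lower and 0 higher, where 4.46% and 4.91% of all measured genes were.

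Genes of dendritic cell maturation had a median log2 of -0.28. Below 0 were 13 of 20 measured members, beside 4270 of all 8927 measured genes. Of the 20, 1 was at least 2-fold lower and 0 higher, against 2.35% and 3.14% of all measured genes. The lower gene was Fscn1 (fascin), an actin-bundling protein of mature dendritic cells. Its brightest probe set read 623 on the untreated array, 824 on TNFa, 641 on AdOVA, 940 on AdOVA+TNFa, 348 on AdIkBa-SR and 310 on AdIkBa-SR+TNFa. Both AdIkBa-SR arrays lay below the other 4, and the difference was 2.66-fold in the comparison. The other probe sets of Fscn1 did not share that difference: they gave log2 values of 0.14 and -0.12, and 1 was under the floor on both arrays. The adhesion molecule Icam1 read 617, 1010, 815, 1669, 352 and 673 on the same arrays, and the costimulatory receptor Cd40 read 97.0 on TNFa and 71.2 on AdIkBa-SR+TNFa. Cd86 (758 and 699), Cd83 (388 and 302) and Cd80 (193 and 216) differed by less than 2-fold. Against AdOVA+TNFa, 10 of the 20 were at least 2-fold lower and 0 higher, where 4.46% and 4.91% of all measured genes were.

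Receptors for antigen uptake included 3 of 23 measured members at least 2-fold higher and 1 lower, against 3.14% and 2.35% of all measured genes, with a median log2 of 0.23. The higher ones were Fcgr1, the complement receptor C5ar1 (455 on TNFa, 1052 on AdIkBa-SR+TNFa and 353 on AdOVA+TNFa) and Cd93 (427, 884 and 112). The lower one was Ly75 (DEC-205), at 142 on TNFa, 68.5 on AdIkBa-SR+TNFa and 109 on AdOVA+TNFa. Among genes that load antigen on MHC class I, 0 of 14 differed by 2-fold, with a median of 0.38. Above 0 were 12 of the 14, against 46.3% of all measured genes. Without TNFa that list's median was -0.02, and its within-time sum had a median of -0.04. MHC class II genes had 0 of 10 beyond 2-fold and a median of 0.21, from Ciita at -0.51 to H2-Ab1 at 0.88.

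Cholesterol synthesis genes leaned lower on AdIkBa-SR+TNFa. Of 12 measured members, 3 were at least 2-fold lower (Hmgcs1, Idi1 and Fdft1) against 2.35% of all measured genes, 0 were higher, and the median log2 was -0.39. Hmgcs1, which makes the precursor of mevalonate, read 535 on the untreated array, 876 on TNFa, 382 on AdOVA, 404 on AdOVA+TNFa, 336 on AdIkBa-SR and 319 on AdIkBa-SR+TNFa. The TNFa array was the highest, and all 4 arrays with virus lay below both without. Idi1, which converts isopentenyl diphosphate, read 181, 226, 104, 96.3, 85.9 and 87.3 on the same arrays, and Fdft1, squalene synthase, 221, 243, 162, 114, 165 and 101. Both kept that split between arrays with and without virus. Without TNFa the list's median was -0.43 and the median within-time sum -0.59. Against AdOVA+TNFa, 0 of the 12 differed by 2-fold in either direction, with a median of -0.15. The second probe set of Idi1 was at log2 -0.27, and the 4 probe sets of Fdft1 ranged from -1.27 to -0.01.

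The list of fatty-acid oxidation and citrate-cycle genes had a median log2 of -0.17. Of 22 measured members, 2 were at least 2-fold lower and 0 higher, against 2.35% and 3.14% of all measured genes. Hadh, which takes part in fatty-acid oxidation, read 767 on the untreated array, 663 on TNFa, 244 on AdOVA, 70.2 on AdOVA+TNFa, 500 on AdIkBa-SR and 179 on AdIkBa-SR+TNFa, so the AdOVA+TNFa array was lower still. Of its other probe sets, 1 gave a log2 of -0.34 and 1 was under the floor on both arrays. Idh1, the cytosolic isocitrate dehydrogenase and not the citrate-cycle enzyme, read 1470 on TNFa, 596 on AdIkBa-SR+TNFa and 294 on AdOVA+TNFa. Hadh and Idh1 were both at least 2-fold higher on AdIkBa-SR+TNFa than on AdOVA+TNFa (log2 1.35 and 1.02). Idh3a, a subunit of the citrate-cycle enzyme, was lower than on TNFa by less than 2-fold (log2 -0.88).

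Survival and death genes had 2 of 16 measured members at least 2-fold higher and 1 lower, against 3.14% and 2.35% of all measured genes, with a median log2 of -0.13. The lower one was Fas, described above. Bak1, a pro-apoptotic pore former of the Bcl-2 family, read 288 on the untreated array, 156 on TNFa, 241 on AdOVA, 190 on AdOVA+TNFa, 253 on AdIkBa-SR and 498 on AdIkBa-SR+TNFa. The TNFa array was the lowest and the AdIkBa-SR+TNFa array the highest. The other Bak1 probe set was under the floor on both arrays of the comparison. Ier3, an early response gene and NF-kB target, read 1567 on TNFa, 3174 on AdIkBa-SR+TNFa and 3571 on AdOVA+TNFa. The anti-apoptotic genes Bcl2l1 (log2 0.40), Mcl1 (0.01), Xiap (-0.94) and Cflar (-0.60) differed by less than 2-fold. Of 19 measured cell cycle genes, 1 was at least 2-fold lower, the proliferation marker Mki67 (245 on TNFa and 113 on AdIkBa-SR+TNFa), and 0 were higher, against 2.35% and 3.14% of all measured genes.

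**Figure D5:**
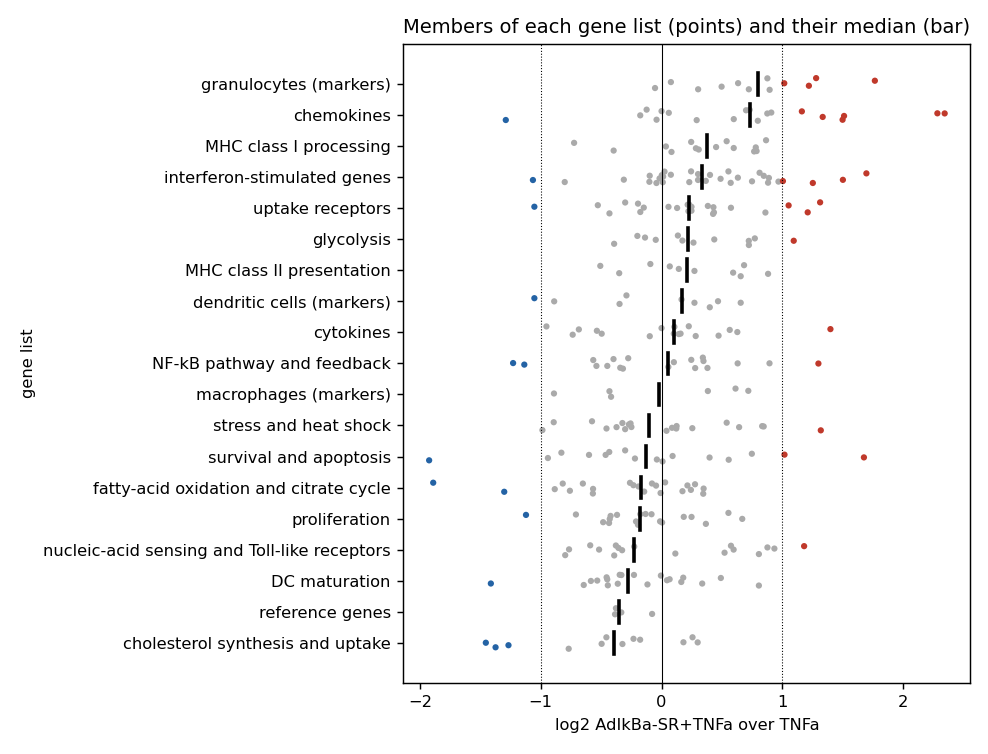
Log2 difference AdIkBa-SR+TNFa over TNFa (x axis) of every measured member of each pathway list and of 3 lists of cell type markers, 1 point per gene, with red and blue for members at least 2-fold higher or lower and a black bar at the list's median. Granulocyte markers (median 0.80) and chemokines (0.73) lie farthest to the right and cholesterol genes (-0.39) farthest to the left.

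Markers of granulocytes, which also grow from bone marrow, differed along with the comparison. Of 12 measured markers, 4 were at least 2-fold higher on AdIkBa-SR+TNFa than on TNFa (Ngp, Prtn3, Ltf and S100a8) and 0 lower. Of all measured genes, 3.14% were higher and 2.35% lower. The median log2 was 0.80, and 11 of the 12 were above 0, against 46.3% of all measured genes. The summed signal of the 12 markers was 28294 on TNFa and 43896 on AdIkBa-SR+TNFa. It was 36996 on the untreated array, 40431 on AdIkBa-SR, 32185 on AdOVA and 23713 on AdOVA+TNFa. Ngp, a neutrophil granule protein, read 2149 on the untreated array, 1324 on TNFa, 2029 on AdOVA, 1942 on AdOVA+TNFa, 2899 on AdIkBa-SR and 4504 on AdIkBa-SR+TNFa. S100a8, a calcium-binding protein abundant in neutrophils, read 8278, 4824, 6825, 4190, 9113 and 9756 on the same arrays in that order. Within-time sums of the list had a median of 0.74. In the pair without TNFa the list's median was 0.15 and 0 of 12 were at least 2-fold higher, against 0.627% of all measured genes. The part of such cells in the differences above was not tested. Macrophage markers had a median of -0.02 over 6 measured members. On AdIkBa-SR+TNFa the summed signal of macrophage markers was 25893.5, beside 6088 for dendritic cell markers. Mast cell and basophil markers summed to 1801 there, with 6 above the floor. Summed signals of T, B, NK and erythroid markers on AdIkBa-SR+TNFa were 131, 549, 227 and 198, with 0, 1, 2 and 1 of their markers above the floor.

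Several of the largest differences in the comparison were within 2-fold without TNFa. Selenow, a small selenoprotein, read 2692 on the untreated array, 987 on TNFa, 2806 on AdOVA, 3031 on AdOVA+TNFa, 2512 on AdIkBa-SR and 4434 on AdIkBa-SR+TNFa, so the TNFa array stood below all others. Its log2 difference was 2.17 with TNFa and -0.10 without. Pglyrp1, a peptidoglycan-binding protein of neutrophil granules, read 220, 144, 191, 233, 262 and 642 on the same arrays, with AdIkBa-SR+TNFa above the rest. The membrane protein Cd99 read 973, 619, 876, 1735, 902 and 2485, and the ribonuclease Rnasek 456, 220, 230, 90.9, 315 and 849. The corepressor Tle5 (168 on TNFa and 774 on AdIkBa-SR+TNFa), the myosin Myo18a (74.6 and 308) and the bromodomain protein Brd8 (111 and 552) were also among the 10 largest. Brd8 differed in the other direction without TNFa, at -1.06. For Tle5, Myo18a and Brd8 the within-time sum had the opposite sign, at -0.28, -0.43 and -0.30.

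Among the lower genes, Fen1, a DNA repair nuclease, read 220 on the untreated array, 561 on TNFa, 71.6 on AdOVA, 51.9 on AdOVA+TNFa, 427 on AdIkBa-SR and 57.7 on AdIkBa-SR+TNFa. The difference of 9.73-fold was the largest of all measured probe sets, and the other Fen1 probe set gave a log2 of 0.09. Tnfaip2, a TNFa-induced gene, read 3372, 5327, 2413, 2335, 3002 and 1760, highest with TNFa alone. Its second probe set gave -0.33, against -1.60 for the brightest. Catalase (Cat) read 778, 1625, 795, 535, 884 and 554, again with the TNFa array apart from the rest, and its within-time sum was 0.08. Gfra3, a receptor of the GDNF family, read 280 on TNFa and 72.3 on AdIkBa-SR+TNFa, with a within-time sum of 0.95, the opposite sign. Dvl1 of Wnt signalling (log2 -1.70, with 0.28 for its other probe set), Fam76b (-1.56) and the condensin subunit Smc4 (-1.51) completed the largest differences, none of them at least 2-fold lower without TNFa.

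With 1 array a group, a spread can be had only by assuming that some effects are shared. The main limma fit of all 6 arrays assumed that TNFa acts alike in cells without virus and with AdOVA. The counts of single arrays differed: TNFa against untreated gave 109 probe sets past 2-fold upward and 157 downward, and AdOVA+TNFa against AdOVA gave 701 and 495. Only the AdOVA pair runs from the first hybridization time to the second, so TNFa and that time cannot be told apart in it. The fit, with 1 residual degree of freedom, gave 11 probe sets higher (0.0738%) and 1 lower (0.00671%) in AdIkBa-SR+TNFa than in the fitted TNFa group at a Benjamini-Hochberg adjusted p under 0.05, and 1455 at an unadjusted p under 0.05. The fitted log2 difference was 2.60 for Mmp13 (SE 0.34, limma adjusted p = 0.00416), 2.34 for Cxcl1 (SE 0.31, limma adjusted p = 0.00416) and 2.66 for Ccl7 (SE 0.37, limma adjusted p = 0.00437). Oasl1 (fitted log2 1.70, limma adjusted p = 0.0462) and Rnasek (2.02, limma adjusted p = 0.0428) also passed, as did 1 of 5 probe sets of the long noncoding RNA Malat1 (2.33), the neuropeptide gene Npy (1.88) and the secreted factor Metrnl (1.73). Fen1 was the lower one (fitted log2 -2.84, limma adjusted p = 0.0428). The other 3 were probe sets with no symbol or several. The calls depend on the settings: a floor of 25 or 100, another scaling of the arrays, no trend in the variance, or an additive fit with or without the hybridization time as a block, left 0 or 1 of the 12 (Mmp13 in the additive fit), with limma adjusted p from 0.0244 to 0.974. A second contrast asked whether the effect of AdIkBa-SR differs with and without TNFa. It called 0 probe sets (0%) by limma, with 737 at an unadjusted p under 0.05 and a smallest adjusted p of 0.382.

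The difference of the virus effect with and without TNFa is also the difference of the TNFa response with and without the virus. In cells without virus, TNFa over untreated had a median log2 of 0.18 over the 17 cytokine genes, with 2 at least 2-fold higher, and AdIkBa-SR+TNFa over AdIkBa-SR a median of 0.00, also with 2. For the 19 NF-kB pathway genes these medians were 0.22 and 0.26, with 0 and 4 members at least 2-fold higher. For the 20 maturation genes they were 0.26 and 0.11. Of all 8927 measured genes, 47 were at least 2-fold higher with TNFa in cells without virus and 149 in AdIkBa-SR cells. The AdIkBa-SR array without TNFa had its own wash and stain protocol, whereas the pair without virus shared 1 protocol. In every difference of AdIkBa-SR+TNFa over AdIkBa-SR, TNFa and the protocol therefore cannot be told apart. Genes that responded to TNFa in AdOVA cells can be chosen without the arrays of the comparison: 357 of 8927 measured genes (4%) were at least 2-fold higher on AdOVA+TNFa than on AdOVA. Of these, 40 (11.2%) were at least 2-fold higher and 3 (0.840%) lower on AdIkBa-SR+TNFa than on TNFa, with a median log2 of 0.28, where all measured genes had 3.14%, 2.35% and 0. Both differences run from an array of the first hybridization time to one of the second, and the part of that time in the shared direction was not tested.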

How the data were processed

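Gene expression was measured on 6 Affymetrix MOE430A arrays, 1 per group, with groups taken from the sample titles. The authors deposited a linear intensity for every probe set, the MAS5 signal according to the submitters' processing notes, which give no version. The trimmed mean was 200.1 on each array, so no rescaling was applied. Precision is limited by having 6 arrays. The array holds 64 control probe sets among 22690. By the platform annotation, 20380 of the rest have 1 gene symbol, 691 several and 1555 none.

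Signals under the floor of 53.5 were raised to it and log2 taken. A call between single arrays means at least 2-fold. limma 3.58.1 in R 4.3.3 (lmFit, eBayes with trend) was fitted to 14906 probe sets above the floor on at least 2 arrays with 5 coefficients: 3 virus states, 1 TNFa response common to virus-free and AdOVA cells, and 1 in AdIkBa-SR cells. It was tested on simulated data. The fit passes exactly through both AdIkBa-SR arrays, so its p-values hold no spread of the AdIkBa-SR+TNFa array. Their spread is the mismatch of the TNFa response between virus-free and AdOVA cells, moderated over probe sets. That mismatch includes the change of hybridization time at the AdOVA+TNFa array and may be technical. For each gene the brightest probe set with 1 symbol was used.

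Named genes were the 12 per direction with the largest smaller difference of both pairs and all arrays above the floor, the 10 per direction with the largest difference in the comparison, up to 5 per direction under the floor on the dim arrays, Nfkbia, and members of the gene lists. The genes called by limma were added after their values were seen. The comparison and the lists were chosen with earlier results of these data known. Alternatives were other floors and scalings, other limma models, the mean over probe sets and the within-time sum. Figures were drawn with matplotlib 3.10.9, and tables made with Python 3.11.15, numpy 2.4.6 and pandas 2.3.3.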

Additional observations from a re-analysis of the deposited data

Results flagged for a closer look

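In 11 probe sets the virus difference was at least 2-fold in opposite directions with and without TNFa, which flagged them. The difference between single arrays was not tested. The limma fit over all 6 arrays tested the contrast of both virus effects and called none of the 11, with adjusted p from 0.893 to 0.995. In Brd8 the log2 difference was 2.32 with TNFa and -1.06 without. Its signals were 471 on the untreated array, 111 on TNFa, 226 on AdIkBa-SR and 552 on AdIkBa-SR+TNFa, and its 4 probe sets ranged from -0.47 to 2.32 in the comparison. Atp6v1e1, a subunit of the vacuolar proton pump, had the largest opposite pair, at -2.19 with TNFa and 2.19 without, in 1 of its 3 probe sets. Its brightest probe set gave -0.22 with TNFa.

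The control probe set for the 5′ end of 18S ribosomal RNA, which no comparison used, gave a signal of 537 on the AdIkBa-SR+TNFa array. It gave 120 on the untreated array, 176 on TNFa, 234 on AdOVA, 340 on AdIkBa-SR and 2601 on AdOVA+TNFa. Its part in the differences was not tested.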

How the results depend on the processing

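No paired analysis was possible because each group has 1 array and the labels give no replicate numbers. The counts of probe sets at least 2-fold apart were 465 higher and 394 lower over all non-control probe sets. With a floor of 25 they were 819 and 741, and with a floor of 100 the lower count was 242. The probe sets apart in both pairs went from 20 higher and 6 lower to 49 and 35 with a floor of 25. Scaling to an equal median, quantile normalization and the filter on measured probe sets kept every count within 1.5 times, and the median of measured probe sets was 0 under each of these settings.

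The limma counts of 11 higher and 1 lower went to 0 and 0 with a floor of 25 or 100, an equal median, quantile normalization, no trend, the additive fit with the recorded hybridization time as a block, and the additive fit without the AdOVA+TNFa array. The additive fit with all arrays called 1 higher and 0 lower. With all 22626 non-control probe sets it called 59 higher and 0 lower, none of them among the 12, and 115 for the difference with and without TNFa, which had 0 otherwise. The cause was not tested. Leaving out the AdIkBa-SR array, an alternative chosen after seeing the data, cannot change the estimate of this contrast, because the model fits that array exactly. It is therefore no check of the calls.

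Of 68 named or listed genes at least 2-fold apart, all stayed so with an equal median and a floor of 25, 59 with a floor of 100, 62 after quantile normalization and 50 with the mean over probe sets, which includes probe sets under the floor. The within-time sum kept 30 past 2-fold and left 31 with the same sign. It reversed 7: Brd8 (-0.30), Tle5 (-0.28), Myo18a (-0.43), Apex1 (0.83), Gfra3 (0.95), Cat (0.082) and Aldoa (-0.029).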

Other observations

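Glycolysis genes had 1 of 12 measured members at least 2-fold higher on AdIkBa-SR+TNFa than on TNFa and 0 lower, with a median log2 of 0.22. Of all measured genes, 3.14% were higher and 2.35% lower. The higher member was the aldolase gene Aldoa, at 4917 on TNFa, 10498 on AdIkBa-SR+TNFa and 10910 on AdOVA+TNFa, and its within-time sum was -0.03. Pyruvate kinase Pkm read 3699 and 6318 on the same first arrays, TNFa and AdIkBa-SR+TNFa, and Pfkl, a phosphofructokinase, 736 and 1215.

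Among nucleic-acid sensors and Toll-like receptors, 1 of 17 was at least 2-fold higher, the inflammasome gene Nlrp3 (357 on TNFa, 809 on AdIkBa-SR+TNFa and 1300 on AdOVA+TNFa), and 0 were lower. Of all measured genes, 3.14% were higher and 2.35% lower. Tlr4 (log2 -0.80) and Tlr2 (-0.77) were lower by less than 2-fold. Of 20 stress genes, 1 was higher, the cell cycle inhibitor Cdkn1a (970 on TNFa and 2418 on AdIkBa-SR+TNFa), and 0 lower, against the same shares of all measured genes. The brightest probe sets of the heat shock genes Hspa8 (-0.89) and Dnajb1 (-0.99) lay just inside the limit. Their other probe sets did not, with -0.49, -0.14 and 0.36 for Hspa8 and 0.16 for Dnajb1. Of 4 measured reference genes, 0 differed by 2-fold, with a median of -0.36.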
